A study of Schizosaccharomyces pombe with 2 samples.

Results

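The mug (meiotically upregulated) and meu (meiotic expression upregulated) genes of the fission yeast Schizosaccharomyces pombe are described here as they stand in the genome annotation deposited with H3K9me2 ChIP-seq libraries. A gene was a member when its coding or mRNA line on chromosomes 1 to 3 had an alias made of mug or meu and digits. This held for 137 of 5155 coding genes, of which 117 had a mug name and 20 a meu name. The series has 2 libraries, replicates 1 and 2, both from swi6Δ cells (labelled Swi6D), which lack the HP1 protein Swi6 and were grown in YES medium. The annotation has no read count or enrichment value for either library, so their depth is unknown, nothing was compared between samples, and no expression or H3K9me2 level is given for any gene. All values below describe sequence and position. They carry no replicate error, and no test over genes was made, because genes are not replicates.

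Fission yeast enters meiosis when nitrogen runs out, and its genes then rise in waves, of which the early waves depend on the HMG-box factor Ste11 and the middle wave, around the meiotic divisions, on the forkhead factor Mei4. Many meiotic mRNAs that are made in dividing cells are removed there by the RNA-binding protein Mmi1, which recognizes clusters of a short hexamer, and some genes of this kind, among them mei4 and ssm4, are known to carry small islands of H3K9 methylation. Mug and meu names were given to genes for raised expression in meiosis, so a gene of this kind can have almost any role, and the name is often replaced once a role is found.

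That replacement shapes the membership. A further 66 coding genes, such as moa1, bqt1, bqt2, mcp7, crs1, spn5, and bgs2, list a mug or meu name only as a synonym, and they are counted among the 5018 other coding genes. Their values are given beside those of the 137 members for some measures only, and the sets can differ where none is given. Of the members, 73 had a product too general for a role, and 56 (40.9%) were annotated as identified in S. pombe only, against 326 of 5018 other coding genes. Conservation in fungi was annotated for 72 members (52.6%) and 89.1% of other coding genes, and conservation in vertebrates for 40 members (29.2%) and 70.9% of other coding genes. Among the 66 synonym genes these shares were 74.2% and 54.5%. Among genes with an annotated deletion phenotype, 7 of 132 members (5.30%) and 1260 of 4725 other coding genes (26.7%) were inviable. The 7 members were mug152, which encodes a Myb family telomere-binding protein, mug84, which encodes a predicted subunit for GPI anchor synthesis, mug69, mug89, mug135, mug160, and mug174.

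The promoters of the members often contained the forkhead letters GTAAACA, the core of the sites that Mei4 binds. A promoter was taken as 250 bases before and 50 after the first base of the annotated mRNA, or of the coding part where no 5′ UTR is annotated. The windows below show the match nearest to that first base, in capitals, for 11 members picked by hand after the matches were seen, most of them with known roles in meiosis or spore formation. They are written 5′ to 3′ on the strand that reads GTAAACA, from the ASM294v3 sequence.
mug65 (chr1:715289-715318, plus strand): tcatttagctaGTAAACAccaaaaatcggc
meu14 (chr2:4066270-4066299, plus strand): ttttctgaaacGTAAACAatcaacatgccc
meu7 (chr2:4274723-4274752, plus strand): tatttttaggcGTAAACAaaaggactgctc
meu17 (chr2:2213515-2213544, plus strand): tttgtttattaGTAAACAaaaacagaggga
mug2 (chr2:388836-388865, plus strand): tcccatgacatGTAAACAgatgtgaatccc
mug135 (chr3:113483-113512, plus strand): cattgagcaatGTAAACAagccaaccccat
meu6 (chr2:454088-454117, minus strand): ttggcgagaatGTAAACAaacaaatcgact
mug20 (chr2:2393135-2393164, minus strand): gctagcttgatGTAAACAaaagacgcgtag
mug28 (chr1:1650949-1650978, minus strand): gaattctcaatGTAAACAaaagtaaacagg
mug27 (chr3:1679592-1679621, plus strand): tcccagcaaatGTAAACAaacaccgggttc
meu25 (chr2:1563843-1563872, plus strand): aatgatccataGTAAACAaacattcaactt

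In 9 of these 11 hand-picked windows at least 1 further A follows the 7 letters, a count that was not made over all matches. The window of mug20, which encodes a component of linear elements, the axial structures of meiotic chromosomes, also contains ACGCG, the core of the MCB element that MCB-binding factors recognize. That of mug28, which encodes an RNA-binding protein of spore formation, contains a second copy of GTAAACA in lower case.

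On either strand, 59 of 137 member promoters (43.1%) contained GTAAACA, against 795 of 5018 promoters of other coding genes (15.8%). Among the 66 genes with the name as synonym the count was 25 (37.9%). Promoters with 2 or more matches numbered 19 of 137 among members (13.9%) and 79 of 5018 among other coding genes (1.57%), and meu14, meu25, mug73, and mug94 had 3 each. The longer word GTAAACAAA was present in 34 member promoters (24.8%) and 4.98% of the others. The same letters in reverse order, ACAAATG, which have the same base composition, were present in 20 member promoters (14.6%) and 7.99% of the others. The median GC content of the promoters was 32.3% for members and 32.0% for other coding genes. The share with GTAAACA was 40.0% of the 20 meu genes and 43.6% of the 117 mug genes. It was 35.7% of members found in S. pombe only and 18.7% of other such genes, and 48.1% of the remaining members and 15.6% of the remaining other genes. Where no 5′ UTR is annotated the window lies before the start codon, and there the shares were 19 of 36 members (52.8%) and 14.5% of other genes.

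The matches of members were most frequent in the last 100 bases before the annotated start. This start, called the first mRNA base below, is the first coding base where no 5′ UTR is annotated. That held for 36 members (26.3%) and 8.37% of other genes, and the bins mix both kinds of start. In bins of 50 bases before the first mRNA base, 21 members (15.3%) had a match centred within the last 50 bases and 20 (14.6%) within the 50 bases upstream of these, against 3.03% and 3.19% of other coding genes. In the outermost bin, 250 to 200 bases upstream, the shares were 3.65% of members and 2.79% of other genes, and in the first 50 bases of the mRNA 3.65% and 2.15%. Of the 82 matches in members, 30 read GTAAACA on the strand of the gene, against 384 of 882 matches in other coding genes. The other 3 motifs, searched on both strands, were found in shares of member promoters close to those of the rest. The Ste11 TR box core TTCTTTGTT was present in 3 members (2.19%) and 1.97% of other genes, ACGCG in 15 members (10.9%) and 551 of 5018 other genes, and TGACGT, the core of sites for ATF/CREB factors, in 10 members (7.30%) and 5.82% of other genes. ACGCG was present in 17 of the 66 synonym genes (25.8%). A match gives only the presence of these letters in the window.

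**Figure D1:**
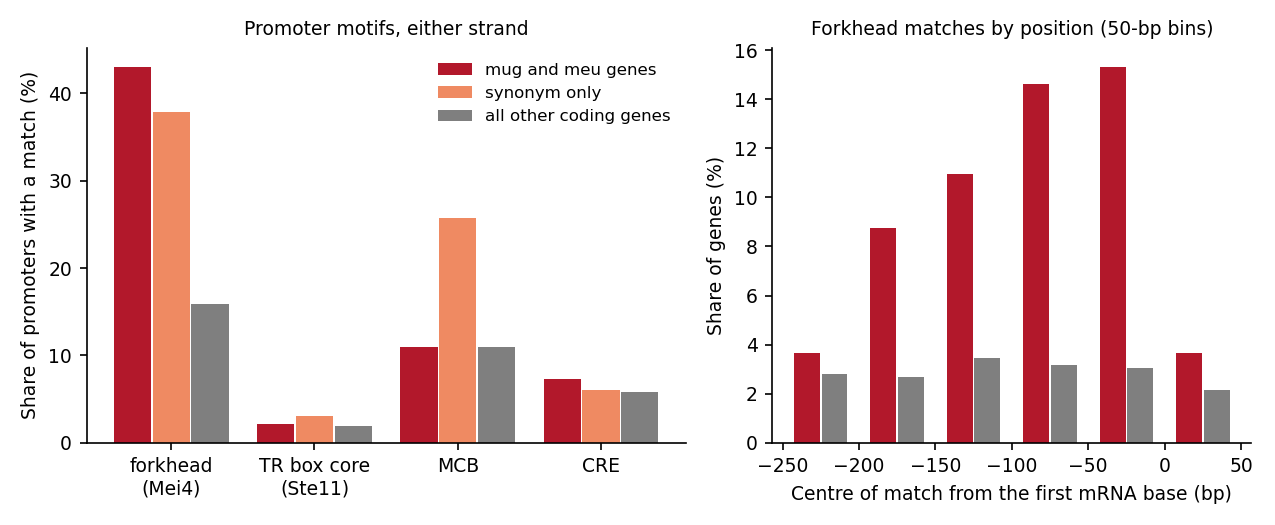
Promoter motifs. Left, share of promoters (%) with each motif on either strand in the 137 mug and meu genes, the 66 genes with such a name as synonym only (a subset of the other coding genes), and the 5018 other coding genes; right, share of genes (%) with a GTAAACA match centred in each 50-bp bin from the first mRNA base. Forkhead matches occurred in 43.1% of member promoters and 15.8% of the others, and the member bars are tallest in the last 100 bp before the start. Where no 5′ UTR is annotated (26.3% of members and 8.37% of the others), the first coding base stands for the first mRNA base.

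Known meiosis genes served as a yardstick for these shares. Of a textbook list of 50 genes, 48 were found, 1 of them a member (meu13) and 8 with a mug or meu name as synonym. Among the 47 that were not members, 20 (42.6%) had GTAAACA in the promoter, 18 (38.3%) had ACGCG, 15 (31.9%) had an antisense noncoding RNA, 30 (63.8%) had an intron, and 19 (40.4%) had no annotated 5′ UTR. The members' share was close to that of the list for GTAAACA and below it for ACGCG (10.9%) and for introns (38.0%).

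Introns were counted as gaps between neighbouring coding parts of a gene. Of the members, 52 (38.0%) had at least 1 intron, against 2349 of 5018 other coding genes (46.8%), and the mean number per gene was 0.723 in members and 0.995 in other genes. The synonym genes lay on the other side, with 36 of 66 (54.5%) and a mean of 1.30. At least 2 introns were found in 24 members (17.5%) and 1307 of 5018 other genes, and 3 or more in 12 members (8.76%) and 13.0% of other genes. Of members found in S. pombe only, 19 of 56 (33.9%) had an intron, against 31.3% of other such genes. Of the remaining members 33 of 81 (40.7%) had one, against 47.9% of the remaining other genes. The lower share of genes with introns among members was found on chromosomes 2 (34.2% against 48.7%) and 3 (25.8% against 45.9%), but not on chromosome 1 (45.6% against 45.7%).

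The 99 introns of members were 37 to 293 bp long, with a median of 57 bp. The median was 56 bp for the 4964 introns of at least 30 bp in other coding genes. Among the 99, the same intron of 73 bp, which begins with GTAAGT, is counted under both meu1 and meu2. The introns of members ended in TAG in 67.7% and began with GTAAGT in 26.3%, against 68.4% and 27.4% of the introns of other coding genes. The donor GTATGT began 12 of the 99 (12.1%) and 20.1% of those of other genes. The most introns were in mug137, which encodes a BAR adaptor protein that binds curved membranes (6 introns), mug62, a predicted AMP-binding enzyme, and mug16, an UNC-50 family protein (5 each). As many as 4 introns each were found in mug161, a predicted splicing factor, meu13, and also mug64 and mug179. The gene meu13 encodes a homologue of Hop2, a partner of the strand exchange proteins in homologous chromosome pairing, and its 651 coding bp on chromosome 1 are cut by introns of 46, 47, 42, and 143 bp. Its donor sites are shown because they differ from each other. Capitals mark the first 6 intron bases, on the plus strand.
meu13 intron 1 (chr1:977752-977781): aggaagGTATAAtattgacaaaaggcattg
meu13 intron 2 (chr1:977852-977881): ctgcaaGTAAGAacatacattaaaaaaatc
meu13 intron 3 (chr1:978001-978030): tatatgGTACTGaaaaattagttaaacaga
meu13 intron 4 (chr1:978184-978213): gcattgGTCAGTaaataaatgctattcttt

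None of the 4 begins with GTAAGT or GTATGT. Another member, mug93, encodes a TPR repeat protein and is annotated as meiotically spliced. Its introns of 59 and 154 bp begin with GTATGC and GTATGT.

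**Figure D2:**
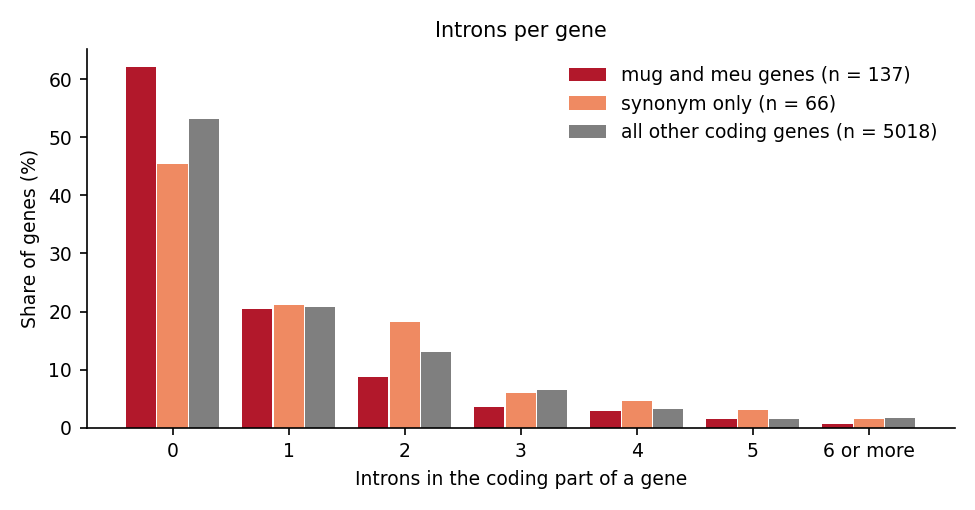
Share of genes (%) by the number of introns in the coding part, for the 137 mug and meu genes, the 66 genes with such a name as synonym only (a subset of the other coding genes), and the 5018 other coding genes. Genes without an intron are the tallest bar in each group, and 38.0% of mug and meu genes, 54.5% of synonym genes, and 46.8% of other coding genes have 1 or more.

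The coding length of members was 936 bp at the median (quartiles 567 and 1530 bp, range 300 to 5808 bp), against 1137 bp (quartiles 672 and 1757 bp) for other coding genes. This difference was seen on chromosome 1 alone, where the 68 members had a median of 771 bp and the other genes one of 1136 bp. The 20 meu genes had a median of 1215 bp. On chromosome 2 the medians were 1172 bp for members and 1155 bp for other genes, and on chromosome 3 they were 1074 and 1068 bp. Without chromosome 1 the direction turned, with 1152 bp for members and 1140 bp for other genes. By conservation, members found in S. pombe only had a median of 654 bp and other such genes 546 bp, while the remaining members had 1143 bp and the remaining other genes 1173 bp. The longest coding sequence was that of mug81 (5808 bp), which encodes a predicted RNA helicase of the Slh1 type. It was followed by mug62 (4287 bp), mug79 (3957 bp), mug190, a C2 domain protein (3567 bp), and mug138, a predicted metallopeptidase (2910 bp). The shortest were meu2 (300 bp), mug150 (315 bp), mug177 (318 bp), mug153 (330 bp), and mug98 (342 bp), all annotated as sequence orphans. meu2 lies within meu1 on chromosome 1, so these genes share sequence.

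Annotated UTRs were missing more often in members. No 5′ UTR was annotated for 36 of 137 members (26.3%) and 420 of 5018 other coding genes (8.37%), no 3′ UTR for 25 (18.2%) and 7.53%, and neither for 17 (12.4%) and 5.48%. Of the 20 meu genes 8 (40.0%) had no 5′ UTR, and of the 66 synonym genes 17 (25.8%). Where a UTR was annotated, the lengths overlapped widely. The median 5′ UTR was 195 bp in 101 members (quartiles 79 and 416 bp) and 172 bp in 4598 other genes (quartiles 89 and 331 bp), and with missing 5′ UTRs counted as 0 the order turned, to 103 bp for members and 155 bp for other genes. The median 3′ UTR was 280.5 bp in 112 members (quartiles 183 and 484 bp) and 261 bp in 4640 other genes (quartiles 149 and 467 bp). In S. pombe-only genes the 5′ UTR medians were 212 bp for members and 214.5 bp for other genes, and the 3′ UTR medians 352 and 351 bp.

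The longest UTRs were of the size of a coding sequence or longer. meu10 encodes a GPI-anchored protein of the ascospore wall and had the longest 5′ UTR (1933 bp) before 1251 coding bp and a 3′ UTR of 1506 bp. The next were mug86, a predicted acetate transporter (1877 bp), meu22, a predicted amino acid permease (1871 bp), mug150 (1620 bp), and mug24, an RNA-binding protein (1568 bp). The longest 3′ UTRs were those of mug115 (2724 bp after 396 coding bp), mug163 (2667 bp after 561 coding bp), mug162 (1922 bp), mug177 (1780 bp), and mug114 (1536 bp). The UTRs together were longer than the coding part in 28 members (20.4%) and 21.2% of other coding genes, so such genes were about as frequent outside the group.

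**Figure D3:**
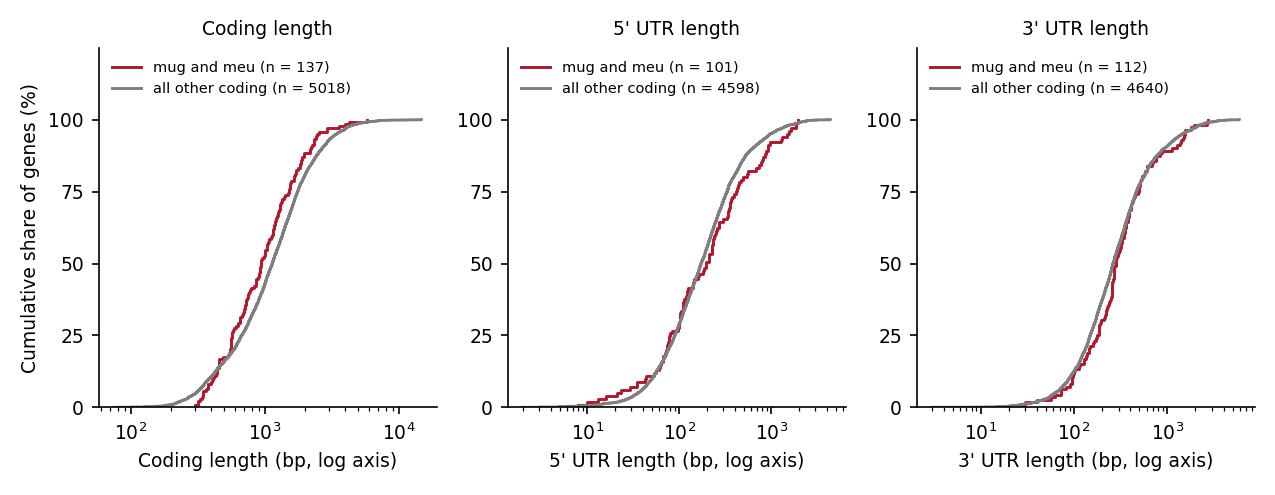
Cumulative share of genes (%) by coding length, 5′ UTR length, and 3′ UTR length (bp, log axes) for mug and meu genes and all other coding genes; genes without an annotated UTR are left out of that panel. The median coding length was 936 bp for members and 1137 bp for the others, and the UTR curves lie close together, with medians of 195 and 172 bp for 5′ UTRs and 280.5 and 261 bp for 3′ UTRs.

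Antisense noncoding RNAs, annotated as SPNCRNA features on the other strand, overlapped the transcribed span of 36 members (26.3%) and 1056 other coding genes (21.0%). The gap was wider for extensive overlap. At least 50% of the span was covered in 29 members (21.2%) and 491 other genes (9.78%), and the whole span in 9 members (6.57%) and 2.85% of other genes. The 66 synonym genes had similar shares, so these values are not particular to the members. Any overlap was found in 20 of them (30.3%), at least 50% in 12 (18.2%), and whole cover in 5 (7.58%). Because a missing UTR shortens the span, the genes with both UTRs were also counted alone, and there at least 50% was covered in 19 of 93 members (20.4%) and 9.37% of other genes. An antisense RNA was listed for 10 of 20 meu genes and 26 of 117 mug genes (22.2%). On chromosome 3 the share with any overlap was lower in members (16.1%) than in other genes (21.6%), and on chromosomes 1 and 2 it was higher (26.5% against 21.0%, and 34.2% against 20.8%).

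The members with whole cover included mug27, a meiosis-specific protein kinase of forespore membrane assembly (2344 bp, under SPNCRNA.1217 and SPNCRNA.583), mug93 (1365 bp), mug182 (1199 bp), mug74 (1178 bp), and meu14 (1164 bp, under SPNCRNA.1663), which encodes a protein of the leading edge of the forespore membrane. A single RNA, SPNCRNA.833, covered both mug66 and its neighbour mug105 over their whole spans. Of the 10 members with a role in the spore wall, the forespore membrane, or the cell surface, 7 had an antisense RNA, and the covered share was 95.8% in meu17, a glucoamylase, 86.2% in mug135, 61.6% in mug2, 60.0% in meu10, 47.4% in meu7, an amylase homologue, and 24.0% in mug56. In the other groups the count was 3 of 5 for ubiquitin and proteases, 3 of 9 for metabolic enzymes, 2 of 8 for kinases, cell cycle and cytoskeleton, 1 of 6 for RNA binding and processing, 2 of 14 for membranes, transport and autophagy, 0 of 5 for recombination, chromosomes and telomeres, 0 of 3 for mitochondria and translation, 0 of 4 for the UPF0300 family, and 18 of 73 for the rest. Among recombination genes of the textbook list outside the members, rec12, dmc1, and rec7 were covered over their whole spans and hop1 over 95.1%. The cover was 32.8% in rec11 and 0% in rec6, rec8, rec10, rec14, rec15, mek1, and mcp7. The groups are small and were formed by hand from the product names after values had been seen, so these counts only describe the genes, and no difference between roles was tested.

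**Figure D4:**
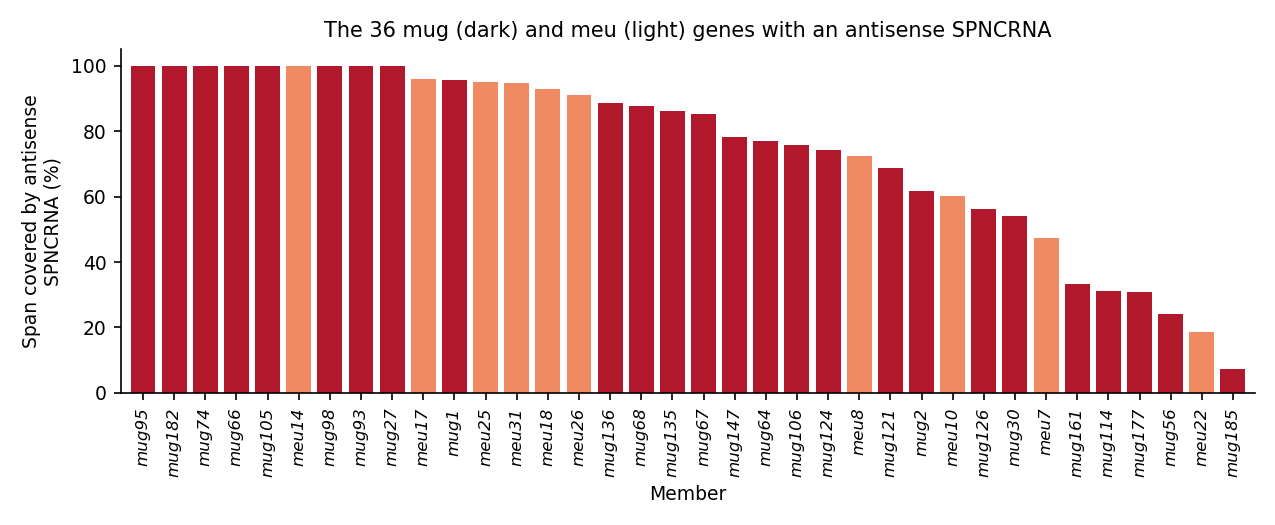
Share of the transcribed span (%) covered by antisense SPNCRNA features in each of the 36 mug and meu genes with any overlap, in falling order, with meu genes in the lighter colour. In 9 genes the whole span is covered and in 29 at least 50%, and meu genes make up 10 of the 36.

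The hexamer that Mmi1 binds, UNAAAC in RNA, was counted as TNAAAC on the sense strand of the coding sequence. It cannot share its AAAC with a forkhead match, since GTAAACA would give a G as its first base. At least 3 copies were found in 47 members (34.3%) and 1791 other coding genes (35.7%), an order that turned with meu names only, with TTAAAC alone, and with synonym genes added, and in 34 of the 66 synonym genes (51.5%). Of the 47 textbook meiosis genes that were not members, 28 (59.6%) had at least 3 copies. Long genes have more copies, and per kb of coding sequence the median was 1.75 in members (quartiles 0.86 and 3.07) and 1.51 in other genes (quartiles 0.62 and 2.40). Over all coding sequence together there were 2.16 copies per kb in members and 1.68 in other genes, against 1.69 in each on the reverse strand. No copy was found in 23 members (16.8%) and 22.1% of other genes. The most copies were in mug45 (17), mug8 (13), mug81 (12), mug62 (11), and mug4 (10), of which mug81 and mug62 are also the longest members. mug9, with 8 copies in 627 bp, had the highest density, at 12.8 per kb, against 6.44 per kb for mei4 and 6.46 per kb for ssm4. The densest stretch of 30 coding bases is shown for some of the members with high counts and for mei4, with each hexamer in capitals.
mug45 (chr2:3638745-3638774, plus strand): ctcccaaaacgtcgagTTAAACcaTAAAAC
mug8 (chr1:2446807-2446836, plus strand): tccgtagatcttTTAAACgtatttTAAAAC
mug4 (chr3:806662-806691, minus strand): aactaatgtcgtTGAAACtaaTAAAACcaa
mug9 (chr3:2369332-2369361, minus strand): ctcaatcgccttctgTTAAACaatTGAAAC
mei4 (chr2:1473909-1473938, plus strand): atagtagtTTAAACtcaaatattgTTAAAC

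In each of these 5 stretches 2 hexamers lie within 30 bases. Other members with high counts had no such pair. No stretch of that length contained 2 in mug81 (12 copies), in mug62 (11 copies), or in mug28, with 9 copies in 1830 coding bp. In the group of recombination, chromosomes, and telomeres, meu13 had 5 copies and meu6, of meiotic chromosome segregation, had 6, while mug20 and mug183 had 2 each and mug152 had 1. In the spore wall and cell surface group 1 of 10 members reached 3 copies.

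The members were spread over all 3 chromosomes, with 68 on chromosome 1 (49.6%), 38 on chromosome 2 (27.7%), and 31 on chromosome 3 (22.6%), against 45.4%, 36.7%, and 17.9% of other coding genes. Per 100 coding genes this was 2.90, 2.02, and 3.33 members. On chromosome 1 the left arm had 54 members and the right arm 14, so that 79.4% lay on the left arm, against 67.6% of the other genes of that chromosome. The median distance from the centromere repeats was 1147 kb for members and 1029 kb for other coding genes, and from the nearest chromosome end 1086 and 1075 kb.

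Few members lay near the heterochromatic regions. Within 100 kb their share was above that of other genes at centromeres and below it at the ends, from counts of 9 and 4 members. Within 100 kb of the repeats of a centromere there were 9 members (6.57%) and 255 other genes (5.08%), and 5 of the 9 were meu genes. The 117 mug genes alone had 4, a share below that of other genes. The nearest at centromere 1 were meu1 at 13129 bp with meu2 inside it at 15160 bp, and mug182 at 66855 bp. At centromere 2 they were meu25 at 37664 bp, mug124 at 40490 bp, and mug80, which encodes a predicted cyclin, at 101029 bp. At centromere 3 they were meu27 of the UPF0300 family at 6708 bp, meu8, a predicted aldehyde dehydrogenase, at 67311 bp, and mug117 at 119647 bp. Within 100 kb of a chromosome end there were 4 members (2.92%) and 201 other genes (4.01%), and within 50 kb there were 0 members and 95 other genes (1.89%). Within 200 kb of an end there were 6 of 137 members and 431 of 5018 other genes, again a lower share in members. The nearest to an end were mug170, which encodes an arrestin, at 56687 bp, mug180, a predicted esterase, at 77670 bp, mug9 at 83093 bp, meu23 at 98574 bp, and mug135 at 112049 bp. The last 2 belong to the DUF1773 family of predicted cell surface glycoproteins and lie toward the left end of chromosome 3.

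**Figure D5:**
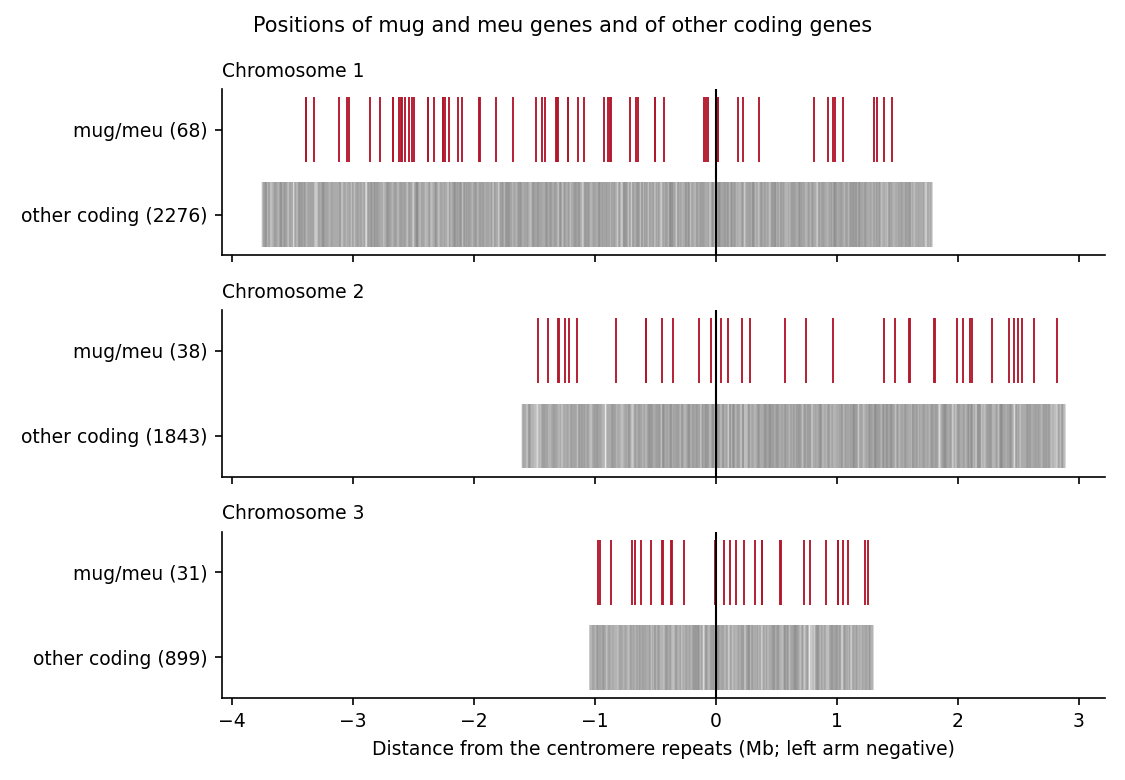
Positions of mug and meu genes (red) above all other coding genes (grey) on chromosomes 1 to 3, as distance from the centromere repeats (Mb, left arm negative, black line at the repeats); each vertical line is 1 gene. The 68, 38, and 31 members reach all arms, 9 of them lie within 100 kb of the repeats, and none within 50 kb of a chromosome end.

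Members were next to each other in 8 pairs, which involve 15 genes. How many such pairs a random order of genes would give was not computed, so the count only describes positions. Of the 8 pairs, 6 lie on chromosome 1 (meu1 and meu2, mug66 and mug105, mug105 and meu29, mug116 and mug86, mug177 and mug58, mug183 and mug79), 1 on chromosome 2 (mug57 and mug97), and 1 on chromosome 3 (mug163 and mug55). The first of these is meu1 with meu2 inside it. In 3 pairs the genes run toward each other, and the mRNA spans overlap by 1407 bp (mug177 and mug58), 1498 bp (mug57 and mug97), and 1592 bp (mug163 and mug55). In the second of these the coding parts themselves overlap by 27 bp. These overlaps come with long 3′ UTRs, of 1780 bp in mug177, 1359 bp in mug57, and 2667 bp in mug163. Overlaps between neighbours among the other coding genes were not counted. Only mug183, a predicted histone chaperone of the Rtt106 type, and mug79 run apart from each other, with 890 bp between their coding parts.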

How the data were processed

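The authors deposited a genome annotation from GeneDB of 33839 lines for the series of 2 swi6Δ libraries. Its deposited values are positions (first and last base, counted from 1), a kind of value other than signal, and its score column has 0 values. The aligner and the genome build are not given in the sources used here, and the depth of the libraries is unknown. Chromosome lengths equalled those of ASM294v3, and all 137 members had a whole reading frame on that sequence. Of these, 133 had the coding ends that RefSeq lists. Coding length is the sum of coding parts. The centromere boundary is the outermost repeat feature within 50 kb of the central core. Motifs were searched with N as any base.

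Members, lists and alternatives were chosen with earlier results of these data known. Named are members with the most introns, the longest or shortest parts, the most hexamers or antisense cover, the nearest to repeats or ends, adjacent pairs, and well-known genes. Other genes are named for comparison. Roles were assigned by hand after values were seen, as were the longer and reversed forkhead words, the comparisons by conservation and the donor sites. An alternative share or median counted as moved when it left the 95% exact binomial interval of the main value, and a count when it differed by over 1.5 times, which serve only as yardsticks. Measures were tested on simulated intervals and sequences. Python 3.11.15, numpy 2.4.6, pandas 2.3.3, scipy 1.17.1 and matplotlib 3.10.9 were used.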

Additional observations from a re-analysis of the deposited data

How the results depend on the processing

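Of 105 values under alternative settings, 80 stayed within the yardstick and 25 moved. Members stayed below other genes in the share with an intron under all 11 alternatives, and above them in the shares with an antisense RNA (11 of 11) and with GTAAACA (9 of 9). These alternatives draw largely on the same genes and include no single chromosome or conservation class. Introns did not differ on chromosome 1 (45.6% against 45.7%) or fall in S. pombe-only members (33.9% against 31.3%). Antisense RNAs were less frequent in members on chromosome 3 (16.1% against 21.6%). The order turned with meu names only, for the share on chromosome 1, coding length, both UTR lengths, hexamers, TTCTTTGTT and TGACGT (5% against 5.82%), and for hexamers also with TTAAAC alone and with synonym names. For ACGCG, where the shares were nearly equal, it turned in 5 of 7. With mug names only, 4 of 117 genes lay within 100 kb of centromere repeats, against 255 of 5018 other genes. That share is below the one of other genes, the direction opposite to that over all members. With meu names only (20 genes), 40% lay on chromosome 1, the median coding length was 1215 bp (1137 bp in other genes), the median 3′ UTR 231.5 bp, 50% had an antisense RNA, 5 lay within 100 kb of repeats and 1 of an end, 1 pair was adjacent, and TTCTTTGTT and ACGCG were in 0% and 20% of promoters. Without chromosome 1 the median coding length was 1152 bp in members and 1140 bp in other genes, the direction opposite to that over all 3 chromosomes. Annotated intron lines, which cover few genes, gave 3.65% of members and 10.3% of other genes with an intron. With a missing UTR counted as 0, the median 5′ UTR was 103 bp in members and 155 bp in other genes, the direction opposite to that over annotated UTRs, and the median 3′ UTR 252 and 243 bp. Within 50 kb of repeats there were 5 members (3.65%) and 130 other genes (2.59%), and within 50 kb of ends 0 members and 95 other genes (1.89%). Within 200 kb of repeats there were 14 of 137 members and 500 of 5018 other genes. Within 200 kb of ends there were 6 of 137 members and 431 of 5018 other genes, a lower share in members. At least 3 hexamers, as TTAAAC alone, were in 4.38% of members and 2.83% of other genes, and over the whole mRNA span in 54.0% and 61.4%. GTAAACA was on the gene's strand in 19.7% of members and 7.29% of other genes, and within 500 bases before the start codon in 54.7% and 22.5%. Both alternative words of the text, GTAAACAAA (24.8%) and ACAAATG (14.6%), also moved. Adjacent pairs numbered 4 on the same strand and 17 with synonym names. The hexamer, UTR and chromosome alternatives change what is counted, and the cause of other shifts was not tested. No paired analysis was possible because the annotation holds no values of the 2 libraries. The depth of the 2 libraries does not enter these values. The annotation gives 1 mRNA per entry, with meu1 and meu2 as separate entries that overlap, and a UTR that is missing there may exist.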

Other observations

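The 66 coding genes that list a mug or meu name only as a synonym had values of their own. Their median coding length was 1150.5 bp, 14 (21.2%) were annotated as identified in S. pombe only, and 5 of 63 with a deletion phenotype (7.94%) were inviable. Hexamers averaged 2.72 per kb over their coding sequence and 1.81 on the reverse strand. At least 5 copies were found in 24 of the 66 (36.4%), 25 of the 137 members (18.2%) and 14.5% of other coding genes.

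Of the 137 members, 108 kept the mug or meu name in RefSeq, 27 had another name there, and 2 (meu1 and meu2) were not matched. The newer names include spo7 for mug79, atg101 for mug66, rtt106 for mug183, fzr3 for mug55 and teb1 for mug152. The product line of mug70 names Mug20 and that of mug146 names Mug46, and the aliases, not the products, were used here. A meu name was also carried by 5 noncoding RNAs (meu3, meu11, meu16, meu19 and meu20) of 414 to 749 bp, none of them on the strand opposite a member.

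A signal sequence was annotated for 13 members (9.49%) and 5.10% of other coding genes, and a transmembrane helix for 17 members (12.4%) and 8.93% of other coding genes. In the UPF0300 family (mug131, mug132, mug133 and meu27) none of the 4 genes had an intron or an antisense RNA, and 1 had GTAAACA.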
